A study of Mus musculus with 8 samples.

Results

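The 78 mitochondrial ribosomal protein genes measured here were all genes whose symbol begins with Mrpl or Mrps followed by a number, among 22520 rows of the expression table. By symbol, 49 belonged to the large subunit (Mrpl) and 29 to the small subunit (Mrps). The rule used names only and no measured value. The mitochondrial ribosome, or mitoribosome, is the protein-making machine of the mitochondrial matrix. Its proteins are encoded in the nucleus, made in the cytosol and imported, while its RNA comes from the mitochondrial genome. It translates the few mRNAs of that genome, which encode membrane subunits of the respiratory chain and of ATP synthase. Many of its proteins descend from bacterial ribosomal proteins, and others were added in the mitochondrial lineage. Activated T cells enlarge their mitochondrial network when they start to divide.

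CD8+ T cells were taken from spleens of wild-type mice and kept in culture under continued stimulation through CD3 and CD28 with IL-2, a model of exhaustion in a dish without tumor or antigen. DADA (diisopropylamine dichloroacetate, a salt of the pyruvate dehydrogenase kinase inhibitor dichloroacetate) was given at 40 µM from day 3, the control cells received the same volume of the solvent DMSO, and RNA was taken on day 6. There were 4 libraries in each group, labelled as biological replicates. The genotype field of the labels reads control for the DMSO libraries and model for the DADA libraries, and gives neither strain nor age. No source used here tells whether the 4 libraries of a group came from separate animals or separate wells, so the p-values measure the spread between these libraries, which may be technical.

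Levels were FPKM, fragments per kilobase of transcript, scaled to the mapped fragments of the library, which allows levels of different genes to be compared per length. Steps between low values put the depth at about 13.7 to 16.6 M fragments per DMSO library and 15.2 to 18.9 M fragments per DADA library, where M stands for mega. These depths were sought only within a range set beforehand and are approximate. Across genes, log2(FPKM + 1) values correlated at 0.993 to 0.995 within a group and at 0.958 to 0.961 between groups. The cells carried the markers of their label: Cd8a, Cd8b1, Cd3d, Cd3e and Cd3g summed to 674 to 680 FPKM in the DMSO libraries and to 776 to 805 FPKM in the DADA libraries. Summed markers of other cells were low, with Cd4 at 0.144 to 0.411 and 0.151 to 0.272 FPKM in DMSO and DADA and 5 erythroid genes at 0.0920 to 0.400 and 0.0726 to 0.426 with Hbb-bs at 0. The 4 myeloid genes summed to 3.43 to 3.96 and 5.09 to 5.54 FPKM, nearly all of it Cd68, while Csf1r and Adgre1 were at 0 in every library, and the 2 NK cell genes Ncr1 and Klrb1c summed to 0 to 0.0959 and 0.144 to 0.336 FPKM. The part of these shifts in the results below was not tested. In bulk RNA, fewer cells of a type and less RNA per cell cannot be told apart.

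Transcripts of most mitoribosomal protein genes were modestly lower with DADA, and few were higher. All 78 members met the level required for testing, 1 FPKM or more in 4 or more of the 8 libraries. A gene was called where limma, fitted over all 10666 genes tested on the log2(FPKM + 1) scale, gave a Benjamini-Hochberg adjusted p under 0.05. By this criterion 53 of the 78 members were called, against 66.2% of all genes tested, so the number of calls was near the background, and the members are described by direction. Of the large-subunit genes, 29 of 49 (59.2%) were lower with DADA, where 35.3% of all genes tested were lower, and 4 (8.16%) were higher, where 30.9% of all genes were. Of the small-subunit genes, 20 of 29 (69.0%) were lower and 0 were higher by limma, also 0 at an unadjusted p under 0.05. On a TPM scale, where each library is brought to the same total, Mrps36 became the 1 small-subunit call that was higher (adjusted p = 0.0327). Among the 7476 genes tested in the members' range of levels, 37.1% were lower and 30.3% higher.

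The median log2 fold change was -0.20 for the large subunit (quartiles -0.27 and -0.02) and -0.24 for the small subunit (quartiles -0.30 and -0.08). Over all genes tested it was -0.02, with quartiles of -0.21 and 0.20. The fitted difference lay below 0 for 38 of 49 Mrpl genes and 25 of 29 Mrps genes. The range ran from -0.54 (Mrpl23) to 0.25 (Mrpl3) in the large subunit and from -0.56 (Mrps10) to 0.14 (Mrps21) in the small subunit. Whether the subunits differed from each other was not tested.

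The 4 DADA libraries lay wholly below the 4 DMSO libraries for 28 Mrpl and 18 Mrps genes, where the same held for 32.2% of all genes tested. They lay wholly above for 3 Mrpl genes and no Mrps gene, against 28.4% of all genes tested. Mrpl49 was the only non-overlapping member that was not called, with an adjusted p of 0.0741 from limma and a log2 difference of -0.07.

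**Figure D1:**
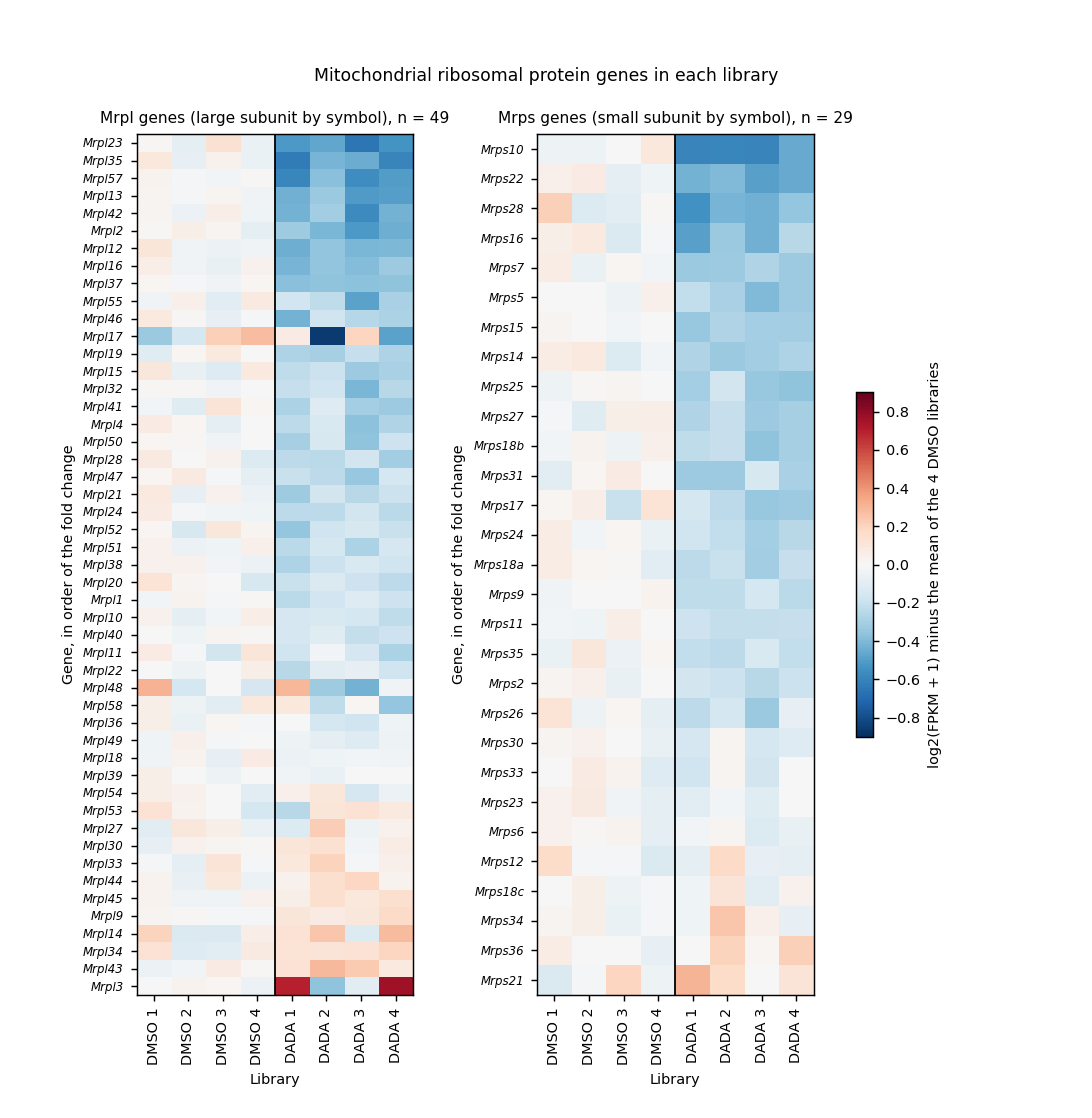
Each cell shows log2(FPKM + 1) of a gene in a library minus the mean of the 4 DMSO libraries, with 49 Mrpl genes on the left and 29 Mrps genes on the right in order of the fold change. The 4 DADA columns are blue in the upper part of both panels, and Mrpl3, Mrpl17 and Mrpl48 differ among the DADA libraries.

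The stretches around the transcription starts of 5 members are printed here to show the letters that the motif counts refer to, in members that fell, rose or were not called. They are RefSeq windows from 250 bases before to 50 bases after a start, on build GRCm38.p6. The build of the expression files is not certain, so these coordinates belong to the RefSeq table and not to the files. Mrps10 had the largest fall of all members, Mrpl43 the largest rise among called members, Mrps27 and Mrps12 held the same pair of motifs with a called fall and no call, and Mrps11 lies head to head with Mrpl46, which starts nearby on the other strand. The last 3 genes were chosen after their values were seen. Capitals mark the ETS letters CCGGAAG, bound by factors of the ETS family such as GABPA, and the YY1 letters AAGATGGC, on either strand.
Mrps10 (ENSMUSG00000034729, chr17:47368947-47369246, plus strand): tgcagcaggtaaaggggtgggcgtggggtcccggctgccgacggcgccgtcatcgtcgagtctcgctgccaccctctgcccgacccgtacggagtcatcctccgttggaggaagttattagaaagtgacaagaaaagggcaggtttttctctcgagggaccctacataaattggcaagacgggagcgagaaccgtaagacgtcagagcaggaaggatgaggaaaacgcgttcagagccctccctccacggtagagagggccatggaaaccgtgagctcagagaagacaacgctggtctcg
Mrpl43 (ENSMUSG00000025208, chr19:45006393-45006692, minus strand): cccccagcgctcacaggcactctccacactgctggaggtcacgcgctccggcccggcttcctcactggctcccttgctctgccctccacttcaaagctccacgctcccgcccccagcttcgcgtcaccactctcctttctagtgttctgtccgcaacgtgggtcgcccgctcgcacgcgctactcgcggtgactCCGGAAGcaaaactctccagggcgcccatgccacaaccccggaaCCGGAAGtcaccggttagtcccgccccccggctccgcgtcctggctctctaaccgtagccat
Mrps27 (ENSMUSG00000041632, chr13:99344536-99344835, plus strand): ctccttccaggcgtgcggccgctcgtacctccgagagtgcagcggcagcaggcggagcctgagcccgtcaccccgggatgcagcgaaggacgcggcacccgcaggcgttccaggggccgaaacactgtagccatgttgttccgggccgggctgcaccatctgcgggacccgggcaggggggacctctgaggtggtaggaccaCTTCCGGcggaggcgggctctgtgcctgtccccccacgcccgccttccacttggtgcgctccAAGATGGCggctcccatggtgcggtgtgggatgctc
Mrps12 (ENSMUSG00000045948, chr7:28741772-28742071, minus strand): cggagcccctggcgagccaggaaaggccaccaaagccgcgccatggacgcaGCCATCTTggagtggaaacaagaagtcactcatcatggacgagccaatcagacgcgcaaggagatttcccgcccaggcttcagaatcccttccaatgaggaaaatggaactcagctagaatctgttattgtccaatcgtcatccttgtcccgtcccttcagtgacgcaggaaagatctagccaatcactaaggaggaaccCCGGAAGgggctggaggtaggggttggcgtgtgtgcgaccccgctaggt
Mrps11 (ENSMUSG00000030611, chr7:78782881-78783180, plus strand): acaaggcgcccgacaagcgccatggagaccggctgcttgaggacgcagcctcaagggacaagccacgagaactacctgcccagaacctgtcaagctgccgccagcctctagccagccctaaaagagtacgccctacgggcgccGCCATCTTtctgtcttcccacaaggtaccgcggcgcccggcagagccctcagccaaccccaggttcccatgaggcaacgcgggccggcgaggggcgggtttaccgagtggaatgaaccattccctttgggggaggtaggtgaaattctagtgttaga

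Of the 78 members, 69 had a window, in 75 windows altogether, and Mrpl4, Mrpl13, Mrpl15, Mrpl19, Mrpl38, Mrpl54, Mrps28, Mrps34 and Mrps35 had none. The motifs searched on both strands were GCATGCGC (NRF1, an activator of nuclear genes for mitochondrial proteins), the ETS and YY1 letters, CACGTG (the E-box, bound by MYC among others) and TGACGTCA (CRE), and none of these contains the letters of another. The ETS letters stood in 34.7% of member windows, 19.6% of the windows of genes tested and 8.86% of all 32851 windows. The YY1 letters stood in 16%, 4.93% and 2.75%, and the NRF1 letters in 10.7%, 5.65% and 2.71% of the same sets. The E-box stood in 9.33%, 10.1% and 7.15%, and the CRE in 2.67%, 3.16% and 1.79%. By subunit, the NRF1 letters stood in 7 of 48 Mrpl windows (14.6%) and in 1 of 27 Mrps windows (3.7%). These shares were 31.2% and 40.7% for the ETS letters and 12.5% and 22.2% for the YY1 letters. They were 12.5% and 3.7% for the E-box and 4.17% and 0% for the CRE. Windows and not genes were counted, so genes with several windows, such as Mrpl48, entered repeatedly. The same E-box of Mrpl2 was counted in each of its overlapping windows. Mrps10, at the bottom of the ranking, held none of the motifs in its window, while Mrpl43 held the ETS letters more than once.

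Within the members, the ETS letters stood in 11 of 45 windows (24.4%) of genes that fell and in 15 of 30 windows (50%) of genes that rose or were not called. The YY1 letters were distributed the other way, in 9 of 45 (20%) and 3 of 30 (10%). Among the windows of all genes called lower, members included, the ETS letters stood in 21.3% and the YY1 letters in 5.38%. In the windows of all genes tested these shares were 19.6% and 4.93%. These shares are descriptions of letters in windows and were not tested.

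Among the large-subunit genes with bacterial relatives, counting Mrps18a by its place, 20 of 31 were lower and 2 higher, with a median log2 fold change of -0.23. Mrpl23, a protein at the exit of the tunnel through which new chains leave, stood at 71.7, 67.2, 78.4 and 68.5 FPKM with DMSO and at 49.4, 51.2, 45.2 and 48.8 FPKM with DADA. No DADA library came near the lowest DMSO library. Its mean fell from 71.5 ± 5.01 to 48.7 ± 2.55 FPKM (SD, n = 4 each). The log2 fold change was -0.54 (SE 0.0521, limma adjusted p = 7.93e-06), and its rank by level among the 78 members went from 2 to 13.

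Mrpl35 stood at 18.3, 16.2, 17.5 and 16.3 FPKM with DMSO and at 10.7, 12.5, 12.3 and 10.9 FPKM with DADA. It is a small protein with a bacterial counterpart, and every DADA library lay below every DMSO library. Its log2 fold change was -0.52 (SE 0.0586, limma adjusted p = 2.53e-05). Mrpl13, a core protein of the large subunit, stood at 68.2, 66.3, 68.2 and 65.7 FPKM with DMSO and at 49.5, 53.1, 46.9 and 47.2 FPKM with DADA. The DADA mean was 73.3% of the DMSO mean, a log2 fold change of -0.44 (SE 0.0385, limma adjusted p = 3.88e-06), and Mrpl13 shares 330 exon bases of the opposite strand with Mtbp, which fell too (log2 fold change -0.68).

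Mrpl2, Mrpl16 and Mrpl37 were chosen after their values were seen, as the next called falls in the large subunit with no overlap beside Mrpl12, which is described with the stalks. Mrpl2, next to the catalytic centre, fell from 44.1 ± 1.86 to 32.7 ± 1.89 FPKM, and Mrpl16, also near that centre, from 32.5 ± 1.38 to 24.9 ± 0.711 FPKM. Mrpl37, a mitochondria-specific protein, had closely spaced values: its DMSO libraries ran from 36.5 to 37.9 FPKM and its DADA libraries from 28.5 to 28.9 FPKM. The log2 fold change of Mrpl37 was -0.37 (SE 0.0234, limma adjusted p = 3.94e-07).

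The stalk proteins Mrpl1, Mrpl10, Mrpl11 and Mrpl12 reach out from the large subunit and guide tRNAs and translation factors. All 4 had a fitted value below 0, 3 of them were called, and their median log2 fold change was -0.17. Mrpl12, the mobile stalk protein that receives translation factors, stood at 71.5, 64.6, 63.8 and 64.8 FPKM with DMSO and at 48.6, 51.6, 49.6 and 49.7 FPKM with DADA. The DMSO library 1 was above the other DMSO libraries, and every DADA library was below all of them, with a log2 fold change of -0.40 (SE 0.0376, limma adjusted p = 6.85e-06). Mrpl10, which anchors Mrpl12 to the ribosome, fell from 36.9 ± 1.67 to 32.7 ± 0.927 FPKM (log2 fold change -0.17, limma adjusted p = 0.00221). Mrpl1, of the stalk on the other side, fell from 18.7 ± 0.336 to 16.4 ± 0.605 FPKM (log2 fold change -0.18, limma adjusted p = 0.000852). Mrpl11, at the base of the factor-binding stalk, was at 26.3 ± 2.23 and 23.5 ± 1.83 FPKM with overlapping libraries and was not called (limma adjusted p = 0.0605), but it was without the DMSO library 3 (adjusted p = 0.0120) or the DADA library 2 (adjusted p = 0.0227).

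Of 6 proteins at the tunnel exit, 4 fell and 1 rose, with a median of -0.23. Mrpl24, the member with the highest level in the DMSO libraries, shares 594 exon bases of the opposite strand with Rrnad1. It stood at 75.9, 71.8, 71.0 and 70.3 FPKM with DMSO and at 61.3, 61.2, 64.2 and 60.9 FPKM with DADA (log2 fold change -0.22, SE 0.0300, limma adjusted p = 0.000102). Mrpl45, which attaches the mitoribosome to the inner membrane where its products are inserted, went the other way. It stood at 36.2, 34.6, 34.5 and 36.4 FPKM with DMSO and at 36.7, 39.2, 37.8 and 39.3 FPKM with DADA (log2 fold change 0.11, SE 0.0316, limma adjusted p = 0.0124). Of 5 proteins of the central protuberance, the ridge above the subunit interface, 3 fell, 2 were not called, and the median was -0.16.

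Among the large-subunit genes without bacterial relatives, 10 of 20 were lower and 2 higher, with a median of -0.14, when Mrps30 was counted by its place in the large subunit. With Mrps18a counted here too, as first listed, 11 of 21 were lower and the median was -0.16. The bacterial relatives then had 19 of 30 lower and a median of -0.23. Mrpl57 stood at 11.3, 10.9, 10.8 and 11.1 FPKM with DMSO and at 6.99, 8.25, 7.13 and 7.46 FPKM with DADA, which was -0.51 in log2 (SE 0.0490, limma adjusted p = 8.36e-06). Mrpl42 stood at 67.0, 63.3, 68.6 and 64.0 FPKM with DMSO and at 48.6, 52.8, 43.8 and 48.7 FPKM with DADA, which was -0.43 in log2 (SE 0.0511, limma adjusted p = 3.6e-05). Neither gene had a DADA library within the DMSO range. Mrpl51, of the lowest levels in the large subunit, fell from 9.70 ± 0.377 to 8.27 ± 0.411 FPKM.

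**Figure D2:**
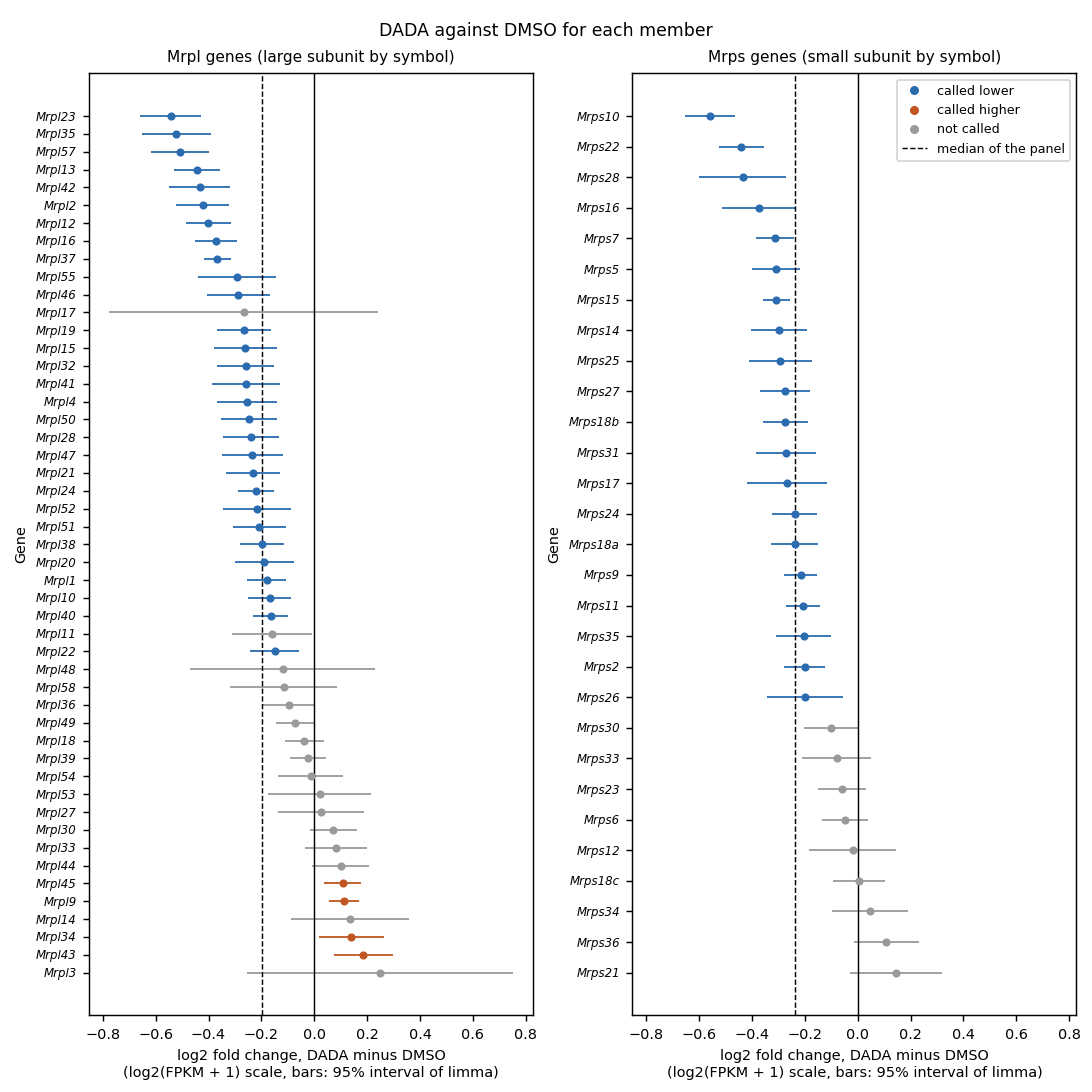
Points are log2 fold changes of DADA against DMSO on the log2(FPKM + 1) scale with the 95% interval of limma, for 49 Mrpl genes (left) and 29 Mrps genes (right), colored by call. The dashed lines mark the medians of -0.20 and -0.24, and 4 Mrpl genes and no Mrps gene carry the color of a called rise.

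The 4 members that rose were all of the large subunit. Mrpl43, a mitochondria-specific protein, stood at 19.3, 19.7, 21.1 and 20.2 FPKM with DMSO and at 22.1, 24.9, 23.8 and 21.4 FPKM with DADA. The lowest DADA library lay just above the highest DMSO library, and the log2 fold change was 0.19 (SE 0.0492, limma adjusted p = 0.00717). Mrpl43 shares 507 exon bases of the opposite strand with Twnk, the mitochondrial helicase, which was not called (log2 fold change 0.04).

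Mrpl9, at the foot of the stalk formed by Mrpl1, rose from 54.004 ± 0.798 to 58.5 ± 1.68 FPKM with no overlap (log2 fold change 0.11, SE 0.0261, limma adjusted p = 0.00341), and shares 157 exon bases of the opposite strand with Oaz3. Mrpl34 stood at 29.3, 24.5, 24.9 and 28.2 FPKM with DMSO and at 29.1, 28.9, 29.3 and 30.6 FPKM with DADA. Its groups overlapped, its log2 fold change was 0.14 with an adjusted p of 0.0452 from limma, and the call was lost under 8 of 16 alternatives, among them leaving out the DMSO library 2 or 3 (adjusted p = 0.119 for both) or any DADA library (adjusted p from 0.0642 to 0.107).

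Among the 16 Mrpl genes that were not called, 3 varied between libraries more than the rest, and they were chosen after their values were seen. Mrpl3, which lies on the large subunit near its catalytic centre, stood at 26.002, 26.5, 26.4 and 25.1 FPKM with DMSO and at 42.8, 19.99, 24.2 and 44.7 FPKM with DADA. The DADA libraries 1 and 4 were above all DMSO libraries and the libraries 2 and 3 were below them, so the mean difference of 0.25 had a 95% interval of -0.25 to 0.75. Mrpl17 stood at 12.7, 14.5, 19.03 and 19.9 FPKM with DMSO and at 17.2, 8.52, 18.8 and 11.4 FPKM with DADA, with no order between the groups. Mrpl48 was highest in the DMSO library 1 (27.99 FPKM) and the DADA library 1 (27.6 FPKM) and lay between 16.3 and 22.3 FPKM in the other libraries.

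The remaining 13 Mrpl genes that were not called had fitted values between -0.16 and 0.13, and among them Mrpl18, Mrpl39 and Mrpl54 had intervals within -0.14 and 0.11. Mrpl39, a relative of threonyl-tRNA synthetase, stood at 22.3 ± 0.662 and 21.9 ± 0.468 FPKM. Mrpl30, a core protein, stood at 69.1 ± 2.48 and 72.7 ± 3.61 FPKM and moved from rank 4 by level with DMSO to rank 1 with DADA without being called (log2 difference 0.07, 95% interval -0.02 to 0.16), although it was called under 3 of 16 alternatives, among them the TPM scale (adjusted p = 0.0335) and leaving out the DADA library 3 (adjusted p = 0.0230). Mrpl58, a peptidyl-tRNA hydrolase that also rescues stalled ribosomes, stood at 30.8 ± 1.93 and 28.5 ± 4.19 FPKM with overlapping libraries. Mrpl18, Mrpl39, Mrpl54 and Mrpl58 were chosen after their values were seen.

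**Figure D3:**
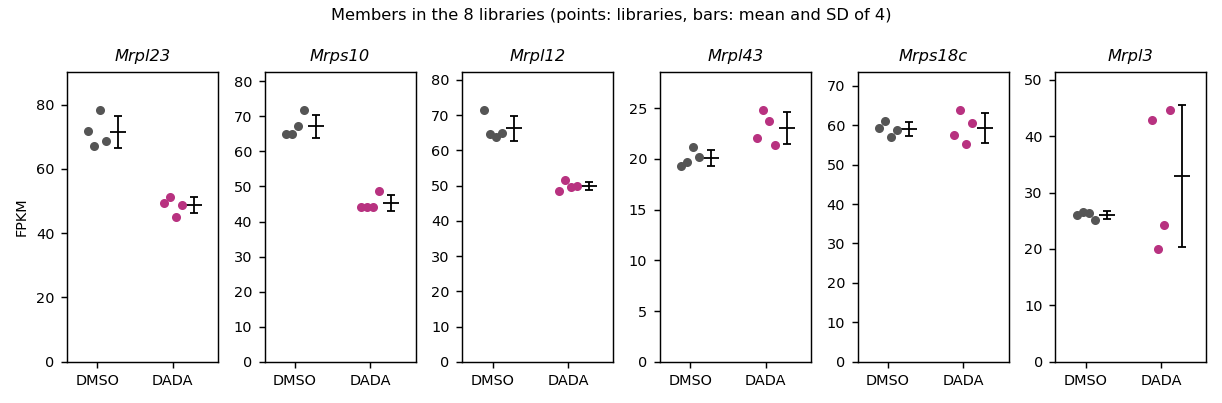
Points are FPKM in the 4 DMSO and 4 DADA libraries for 6 members on axes that start at 0, with bars for mean and SD. Mrpl23, Mrps10 and Mrpl12 show DADA libraries below all DMSO libraries, Mrpl43 shows them above, Mrps18c overlaps, and Mrpl3 is split between 19.99 to 24.2 and 42.8 to 44.7 FPKM with DADA.

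In the small subunit, 13 of 17 genes with bacterial relatives, Mrps18b among them, fell and none rose, with a median log2 fold change of -0.27. Mrps10, of the head of the small subunit, stood at 64.9, 64.9, 67.1 and 71.9 FPKM with DMSO and at 44.2, 44.3, 44.1 and 48.7 FPKM with DADA. Every DADA library was far below every DMSO library, and the DADA library 4 was the highest of its group. The mean fell from 67.2 ± 3.29 to 45.3 ± 2.23 FPKM, and the log2 fold change of -0.56 (SE 0.0425, limma adjusted p = 1.42e-06) was the largest of the 78 members in either direction.

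Mrps28 stood at 34.6, 27.1, 27.5 and 29.9 FPKM with DMSO and at 20.04, 21.9, 21.7 and 23.1 FPKM with DADA. The DMSO library 1 was the highest, and the groups did not overlap, with a log2 fold change of -0.44 (SE 0.0730, limma adjusted p = 0.000444). Mrps16, of the body of the small subunit, stood at 17.2, 17.6, 15.01 and 16.4 FPKM with DMSO and at 11.5, 12.9, 11.99 and 13.7 FPKM with DADA (log2 fold change -0.37, SE 0.0621, limma adjusted p = 0.000411). Mrps7, which lines the path of the mRNA, fell from 34.2 ± 1.296 to 27.3 ± 0.602 FPKM (log2 fold change -0.31, SE 0.0323, limma adjusted p = 1.34e-05). Mrps7 shares 127 exon bases of the opposite strand with Gga3, which was not called, and 119 with Mif4gd.

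Mrps15, a core protein chosen after its values were seen, had a range of 54.1 to 55.8 FPKM with DMSO and of 43.3 to 45.4 FPKM with DADA, among the narrowest spreads of the members, and fell with a log2 fold change of -0.31 (SE 0.0234, limma adjusted p = 1.44e-06). Mrps6 stood at 67.8 ± 2.71 and 65.6 ± 2.95 FPKM and was not called, with an interval of -0.13 to 0.04, and it shares 305 exon bases of the same strand with Gm49711 and 159 with Slc5a3. Mrps12, a protein of the decoding site, stood at 18.9 ± 1.72 and 18.6 ± 1.79 FPKM (interval -0.18 to 0.15), and Mrps21 at 29.7 ± 3.03 and 32.9 ± 3.04 FPKM (interval -0.03 to 0.32). Mrps12 and Mrps21 were chosen after their values were seen.

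Of the 9 mitochondria-specific small-subunit genes, 6 fell and none rose, with a median of -0.20. With Mrps18b counted here, as first listed, 7 of 10 fell and the median was -0.24. The bacterial relatives then had 12 of 16 lower and a median of -0.25. Mrps22 stood at 47.5, 48.4, 43.4 and 44.8 FPKM with DMSO and at 34.05, 34.8, 32.5 and 33.4 FPKM with DADA, far below every DMSO library (log2 fold change -0.44, SE 0.0382, limma adjusted p = 3.82e-06). Mrps25, the member of the lowest level, stood at 4.65, 4.87, 4.93 and 4.84 FPKM with DMSO and at 3.71, 4.19, 3.61 and 3.54 FPKM with DADA (log2 fold change -0.29, limma adjusted p = 0.000728). It shares 4590 exon bases of the opposite strand with Nr2c2. Mrps26, the next lowest, stood at 8.54, 7.52, 7.87 and 7.25 FPKM with DMSO and at 6.47, 6.88, 5.98 and 7.33 FPKM with DADA. Its groups overlapped in the last library of each, its log2 fold change was -0.20 (limma adjusted p = 0.0203), and the call was lost without the DMSO library 1 (adjusted p = 0.0561) or without the DADA library 3 (adjusted p = 0.0538).

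Mrps27, an RNA-binding protein of the pentatricopeptide repeat family whose promoter is printed above, stood at 30.1, 28.01, 31.5 and 31.6 FPKM with DMSO and at 24.9, 26.1, 23.9 and 24.5 FPKM with DADA (log2 fold change -0.27, SE 0.0428, limma adjusted p = 0.000266). Mrps11 stood at 26.5 ± 0.82897 and 22.8 ± 0.246 FPKM, and Mrpl46, its head-to-head partner, at 32.4 ± 1.55 and 26.4 ± 1.93 FPKM. The log2 fold changes of this pair were -0.21 and -0.29 with no overlap between the groups in either gene. The annotated exons of the pair share 173 bases on opposite strands, and reads there cannot be assigned to either gene unless strand was used in counting, which no source used here states.

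The symbol of some members does not tell their place. Mrps18a, Mrps18b and Mrps18c descend from the same bacterial protein, of which Mrps18a sits in the large subunit and the other two in the small subunit. Mrps18a stood at 43.03, 41.5, 41.3 and 38.3 FPKM with DMSO and at 34.6, 35.6, 32.9 and 35.3 FPKM with DADA (log2 fold change -0.24, SE 0.0395, limma adjusted p = 0.00041). Mrps18b stood at 70.1, 72.8, 69.0 and 73.5 FPKM with DMSO and at 60.9, 61.7, 55.3 and 57.7 FPKM with DADA (log2 fold change -0.27, SE 0.0378, limma adjusted p = 0.000113). Both had DADA libraries below every DMSO library. Mrps18c stood at 59.3, 61.2, 57.01 and 58.6 FPKM with DMSO and at 57.4, 63.9, 55.1 and 60.6 FPKM with DADA. Its groups overlapped throughout, and its 95% interval of -0.09 to 0.10 did not reach the changes of Mrps18a and Mrps18b, although the difference between the 3 genes was not tested.

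Mrps30, a large-subunit protein by place, stood at 18.1 ± 0.602 and 16.9 ± 1.08 FPKM and was not called (log2 difference -0.10, limma adjusted p = 0.0737). Its call was gained without the DMSO library 4 (adjusted p = 0.0470) or without the DADA library 2 (adjusted p = 0.00709). Mrps36 is a subunit of 2-oxoglutarate dehydrogenase and not a ribosomal protein in spite of its symbol. It stood at 28.3 ± 1.18 and 30.7 ± 2.50 FPKM, with an interval of -0.02 to 0.23 and a call only on the TPM scale and without the DADA library 1 (adjusted p = 0.0435). When the members were counted by place, with Mrps36 left out, 30 of 51 large-subunit and 19 of 26 small-subunit genes were lower, 4 and 0 were higher, and the medians were -0.20 and -0.25.

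Summed over members, the Mrpl genes gave 1758, 1682, 1714 and 1697 FPKM in the DMSO libraries and 1532, 1557, 1487 and 1527 FPKM in the DADA libraries. The Mrps genes gave 971, 965, 946 and 949 FPKM with DMSO and 825, 859, 802 and 834 FPKM with DADA. In both subunits the highest DADA sum was below the lowest DMSO sum. The large-subunit sum was 10.9% lower and the small-subunit sum 13.3% lower with DADA. The total over all rows was itself 2.19% lower with DADA, and as a share of that total the Mrpl genes went from 0.378% ± 0.00590 to 0.344% ± 0.00353 and the Mrps genes from 0.211% ± 0.00152 to 0.187% ± 0.00327 (SD, n = 4 each). The ratio of the large-subunit sum to the small-subunit sum was 1.79 ± 0.0323 with DMSO and 1.84 ± 0.0199 with DADA, where the lowest DADA library (1.814) lay just above the highest DMSO library (1.812).

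**Figure D4:**
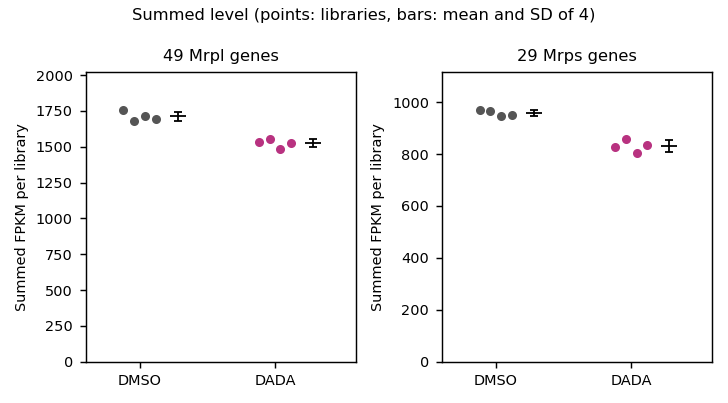
Points are the FPKM of 49 Mrpl genes (left) and 29 Mrps genes (right) summed in each of 4 DMSO and 4 DADA libraries, with bars for mean and SD on axes that start at 0. DADA libraries lie between 1487 and 1557 FPKM against 1682 to 1758 for Mrpl, and between 802 and 859 against 946 to 971 for Mrps.

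Although their products are thought to stand in the ribosome in equal number, with Mrpl12 as a known exception, the members' transcripts differed widely in level per length. DMSO means ran from 4.82 FPKM (Mrps25) to 72.3 FPKM (Mrpl24), with medians of 31.3 FPKM for Mrpl and 28.3 FPKM for Mrps genes. The order of levels was much the same with DADA, with a Spearman correlation across the 78 genes of 0.951 between group means from libraries of the same table. Replicates were close, with a median coefficient of variation of 4.77% over DMSO and 5.6% over DADA libraries. It exceeded 10% in a group for 10 members, namely Mrpl3, Mrpl14, Mrpl17, Mrpl27, Mrpl48, Mrpl53, Mrpl58, Mrps21, Mrps28 and Mrps34.

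The members were spread over 17 chromosomes as 78 protein-coding genes, with at most 11 on the same chromosome (chromosome 11) in GENCODE M21. For 37 of them, another gene of the annotation starts within 1000 bases on the other strand, an arrangement in which a promoter can serve both genes. Whether both genes run away from each other, and whether a promoter is shared, was not checked. In 30 cases that neighbour was protein-coding and tested, and 15 neighbours fell, 8 rose and 7 were not called. Over all genes tested, 35.3% fell and 30.9% rose. Of the 17 members of these pairs that fell, 11 had a neighbour that fell and 2 a neighbour that rose, Mrpl2 with Klc4 (log2 fold change 0.56) and Mrps18b with Ppp1r10 (0.22). Across the 30 pairs, which hold Mrpl46 and Mrps11 from both sides, the Spearman correlation of the fold changes was 0.401. Exon bases were shared with another gene of the table in 21 members, so some of these values may mix both genes. Several of the 30 pairs share exon bases themselves, for example Mrpl13 with Mtbp (330 bases) and Mrpl48 with Rab6a (708 bases). The part of shared reads in the pair counts and in the correlation was not tested.

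Of 5 mitoribosomal proteins that carry other symbols, 2 fell (40%, against 35.3% of all genes tested) and none rose. Their median was -0.09, which moved to -0.059 on the TPM scale, -0.052 with quantile normalization, -0.046 without the DMSO library 1 and -0.058 without the DADA library 3. Chchd1, of the small subunit, stood at 85.0, 81.7, 85.3 and 81.7 FPKM with DMSO and at 56.6, 62.4, 55.8 and 59.3 FPKM with DADA (log2 fold change -0.51, limma adjusted p = 8.9e-07). Ptcd3, another small-subunit protein of the pentatricopeptide repeat family, stood at 50.1, 52.5, 52.6 and 52.5 FPKM with DMSO and at 36.7, 37.7, 37.4 and 35.7 FPKM with DADA (log2 fold change -0.48, limma adjusted p = 1.53e-07). Both fitted values lay between those of the members Mrpl57 (-0.51) and Mrpl13 (-0.44). Dap3, Aurkaip1 and Gadd45gip1 were not called.

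Of 30 tested genes for mitoribosome assembly and rRNA modification, 18 fell (60%) and 4 rose (13.3%), with a median of -0.18. The shares over all genes tested were 35.3% and 30.9%. Rcc1l, an assembly factor, fell from 15.1 ± 0.224 to 9.43 ± 0.578 FPKM (log2 fold change -0.63, limma adjusted p = 5.81e-07), and Mrm3, a methyltransferase of the large mitochondrial rRNA, from 9.58 ± 0.801 to 5.87 ± 0.661 FPKM (log2 fold change -0.63, limma adjusted p = 5.44e-05). Afg3l2, a protease of the inner membrane that matures Mrpl32, rose from 39.4 ± 0.714 to 65.0 ± 2.04 FPKM. Its rise of 0.71 in log2 (limma adjusted p = 1.25e-08) was the largest over these lists. Mrpl32 itself went from 22.8 ± 0.337 to 18.9 ± 1.40 FPKM (log2 fold change -0.26, limma adjusted p = 0.000843). Mterf4, which brings an rRNA methyltransferase to the large subunit, was called higher with overlapping groups (log2 fold change 0.18, limma adjusted p = 0.0456). That call was lost under 9 of 16 alternatives, the replicate block (adjusted p = 0.0563) and leaving out the DMSO library 1 or 4 or the DADA library 1, 3 or 4 (adjusted p from 0.0789 to 0.112) among them.

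Of 16 mitochondrial translation factors, 10 fell (62.5%, against 35.3% of all genes tested) and 1 rose (6.25%, against 30.9%), with a median of -0.21. Lrpprc, which stabilises mitochondrial mRNAs, fell from 38.1 ± 0.455 to 26.99 ± 0.529 FPKM (log2 fold change -0.48, limma adjusted p = 7.77e-08), and Mtrf1, a release factor, from 5.92 ± 0.685 to 4.08 ± 0.373 FPKM (log2 fold change -0.44, limma adjusted p = 0.000719). Mtif3, an initiation factor, was called higher (log2 fold change 0.30, limma adjusted p = 0.0450), but the DADA library 1 stood at 12.7 FPKM and the others at 8.68 to 8.76 FPKM, above the highest DMSO value of 8.46 FPKM. Without that library its log2 difference was 0.18 and it was not called (adjusted p = 0.0731), nor was it without the DMSO library 1 (adjusted p = 0.118) or 4 (adjusted p = 0.0905). Of 16 genes for mitochondrial transcription and RNA processing, 10 fell (62.5%, beside the same 35.3%), with a median of -0.18. None of them rose by limma, also 0 at an unadjusted p under 0.05. Fastkd1, of a family of mitochondrial RNA-processing proteins, fell from 7.17 ± 0.536 to 5.08 ± 0.557 FPKM, and Hsd17b10, a subunit of mitochondrial RNase P, from 104 ± 2.17 to 82.0 ± 2.67 FPKM.

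The mRNAs that the mitoribosome reads moved both ways. Of 13 mitochondrially encoded mRNAs, 8 rose (61.5%, against 30.9% of all genes tested) and 4 fell (30.8%, against 35.3%), with a median of 0.13. The 4 that fell encode subunits of complex I, among them mt-Nd3 (215 ± 12.96 to 117 ± 7.07 FPKM, log2 fold change -0.87) and mt-Nd2 (1081 ± 45.3 to 608 ± 40.6 FPKM, log2 fold change -0.83). Other mRNAs for complex I rose, among them mt-Nd6 (217 ± 18.01 to 332 ± 25.4 FPKM, log2 fold change 0.61) and mt-Nd4 (783 ± 40.0 to 1159 ± 37.0 FPKM, log2 fold change 0.57). Because the strand setting of the counting is not known, reads of the other strand may have entered these values, which was not tested. The alternatives were run for the mRNAs named here but not for this list as a whole. The mitochondrial rRNAs were not analysed here.

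Most transcripts for proteins of the cytosolic ribosome fell too. Of 83 tested genes among 86 in the table, 58 (69.9%) were lower and 3 (3.61%) higher, with a median of -0.18. Over all genes tested, 35.3% were lower and 30.9% higher. No comparison between the 2 kinds of ribosome was tested. With quantile normalization 44 of the cytosolic genes were lower and their median was -0.11, while the medians of the Mrpl and Mrps genes were -0.18 and -0.24. Under the other alternatives run for the cytosolic genes, 55 (TPM) to 64 (without the DADA library 2) were lower. Their medians there ran from -0.21 (without the DADA library 2) to -0.15 (TPM). The fall was led by Rpl21 (113 ± 4.07 to 68.1 ± 11.1 FPKM) and Rps27l (163 ± 4.82 to 104.5 ± 6.33 FPKM), and Rpl37a and Fau were called higher by small amounts (log2 fold changes 0.15 and 0.13), with the call lost under 1 and 9 of 16 alternatives, for Fau without the DMSO library 2, 3 or 4 or the DADA library 1, 2 or 4 among others (adjusted p from 0.0596 to 0.126). The cytosolic genes have many processed pseudogenes, with which reads can be shared, and are uncertain to that extent.

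**Figure D5:**
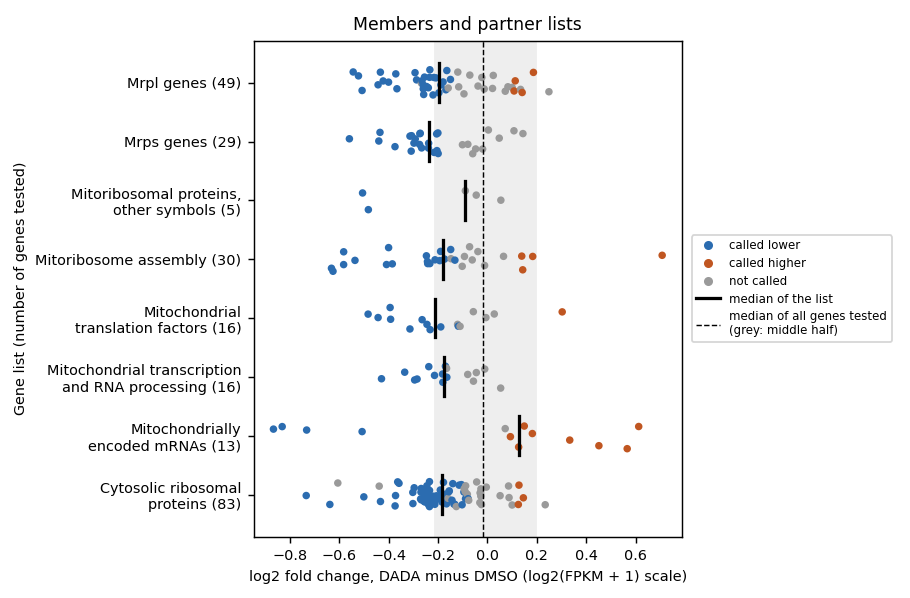
Points are log2 fold changes of DADA against DMSO for the members and for lists of partner genes, black bars are the medians of the lists, and the grey band runs between the quartiles of all genes tested, -0.21 and 0.20, around their median of -0.02. Medians lie between -0.24 and -0.09 for the nuclear lists and at 0.13 for the 13 mitochondrially encoded mRNAs.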

How the data were processed

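Bulk RNA-seq of 8 libraries was used, grouped by their titles and the treatment text of the labels. From paired reads of 150 bases the authors made FPKM values for each gene and library, and these were used as deposited. The submitters' processing notes list CASAVA 1.8.2, FastQC 0.11.9, HISAT2 2.0.5, StringTie 1.3.3, Picard 1.41 and SAMtools 0.1.18 and the builds GRCm39 and GRCh38 without saying what each was used for. The kit is named differently in the labels and in the methods, and the strand setting of the counting is not given in the sources used here. No column of the files was left without a sample.

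The members and all partner and marker lists were chosen with earlier results of these data known. The B cell markers are not reported here. Mrps18a and Mrps18b, first listed as mitochondria-specific, were moved to the bacterial relatives after their values were seen. Genes reaching 1 FPKM in at least 4 of 8 libraries were fitted on log2(FPKM + 1), which understates the change of low genes, with limma 3.58.1 under R 4.3.3: a single treatment term, a variance prior that follows the mean, and Benjamini-Hochberg adjustment over every gene tested. The members' counts and medians were read from that fit. Counts could not be recovered. The depth of a library was the value, within a range set beforehand, that put the largest share of low values near whole fragments. At that depth, 44.9% to 49.8% of 323 to 369 low values per library were within 0.1 of a whole fragment. These values came from 4431 genes with a single transcript. The 20% by chance holds for a single depth and not for the best of many, and no depth outside the range was tried. The depth is therefore approximate, and counts were not tested.

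The text names, for Mrpl and Mrps apart, the 5 largest called falls and the 5 largest called rises at a mean of at least 5 FPKM, the 2 highest and 2 lowest by level, Mrps30, Mrps18a, Mrps18b, Mrps18c and Mrps36, the stalk proteins, and, per partner list, the 2 largest called falls and rises. Members named in addition were chosen after their values were seen, as were Dap3, Aurkaip1, Gadd45gip1 and the head-to-head neighbours. Transcript lengths, neighbours and shared exon bases came from GENCODE M21 (all 78 members matched by identifier) and promoter windows from RefSeq, both of build GRCm38, and were computed with Python 3.11.15, pandas 2.3.3, numpy 2.4.6 and scipy 1.17.1. Figures were drawn with matplotlib 3.10.9. Alternatives were a pseudocount of 0.1, no filter, a mean of at least 5 FPKM, TPM, median-ratio and quantile scaling, no variance trend, the replicate number as a block, the subunit by the protein's place, and each library left out in turn.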

Additional observations from a re-analysis of the deposited data

Results flagged for a closer look

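In 8 of 100 groups of 4 libraries tested, 1 library lay so far from the other 3 that its gap to them, as a share of the whole range, exceeded Dixon's critical value. Chance flags about 1 in 20 such groups, and no cause was tested. Among the members, the gap was 0.975 for Mrps10 in the DADA libraries (library 4 at 48.7 FPKM, the others at 44.1 to 44.3), 0.934 for Mrps7 in the DADA libraries (library 3 at 28.2, the others at 26.9 to 27.01), 0.895 for Mrpl24 in the DADA libraries (library 3 at 64.2, the others at 60.9 to 61.3), and 0.871 for Mrpl12 in the DMSO libraries (library 1 at 71.5, the others at 63.8 to 64.8). In each of these 4 genes the outlying library lay on its group's side of every library of the other group. For Mrpl12 it was the library farthest from that other group.

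Among the partner genes, the gap was 0.982 for Mtif3 in the DADA libraries (library 1 at 12.7 FPKM, the others at 8.68 to 8.76), 0.954 for Ptcd3 in the DMSO libraries (library 1 at 50.1, the others at 52.5 to 52.6), 0.889 for mt-Nd4 in the DADA libraries (library 1 at 1214, the others at 1137 to 1145), and 0.883 for Hsd17b10 in the DADA libraries (library 3 at 78.0, the others at 83.0 to 83.7). Only for Mtif3 did leaving out the flagged library end the call.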

How the results depend on the processing

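No called member changed sign under any alternative, and 51 to 53 of the 53 member calls were kept under each. Of the 48 genes that the naming rule chose, 38 had the same call under every alternative. The count of Mrps genes called higher, 0 over all libraries, was 1 on the TPM scale (Mrps36), and from 0 to 1 with a library left out: it was 1 without the DMSO library 3 or the DADA library 3 (Mrps21) and 1 without the DADA library 1 (Mrps36). With a library left out, Mrpl genes called lower numbered 29 to 30 and called higher 3 to 5, Mrps genes called lower 19 to 21, and the medians ran from -0.20 to -0.19 for Mrpl and from -0.24 to -0.22 for Mrps. On the TPM scale the Mrps median was -0.21, and the log2 ratio of the summed levels was -0.13 for Mrpl and -0.17 for Mrps, against -0.17 and -0.21 as deposited; the total FPKM was 2.19% lower with DADA. Mrps18c, near 0 and not called, ran from -0.033 to 0.037 with a library left out, and was below 0 without the DMSO library 3 (-0.012), the DADA library 2 (-0.033) or the DADA library 4 (-0.00729). All genes called numbered 5741 to 7868 over the alternatives, their share lower with DADA 48.4% to 57.8%.

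Libraries of the same number did not deviate together from their group means (correlations across genes 0.0953, -0.12, -0.0877 and 0.0751), so no pairing by number was seen. Whether libraries of the same number share an origin cannot be told from these correlations. With the replicate number as a block, 6995 genes were called against 7064, the members gave 29 Mrpl and 20 Mrps genes lower and 4 and 0 higher, and all 53 member calls were kept. Of the named genes, Mterf4, Mtif3 and Fau lost their call under the block. Counts of 4 or fewer rises in partner lists were unstable: assembly factors fell from 4 to 2, translation factors from 1 to 0 and cytosolic ribosomal proteins from 3 to 1 under single settings, several omitted libraries among them. FPKM holds no counts, so the counting error of single genes is unknown.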

Other observations

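Across the 78 members, the log2 fold change had a Spearman correlation of -0.40 with the length of the longest annotated transcript, against 0.04 across 10481 genes tested with a match in GENCODE M21. The median length was 1866 bases for the members and 3302 bases for all of these genes. The correlation with GC content was 0.15 across the members and 0.11 across all of these genes, and that with the mean level was 0.08 across the members. Genes are not independent replicates, and FPKM itself contains a length, so these values are descriptions without a test.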
